A study of Mus musculus with 48 samples.

Results

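A set of 7 genes describes how an enterochromaffin cell handles serotonin and whether it also makes tachykinin peptides, and their transcript levels were followed here in sorted enteroendocrine cells (EECs) along the mouse gut and after stomach surgery. The members were taken by name: Tph1, Ddc, Slc18a1, Slc18a2, Slc6a4, Maoa and Tac1, which are 7 of the 53465 genes in the count table. All 7 passed the filter on low counts and were among the 15126 genes tested.

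Enterochromaffin cells are the EECs of the gut epithelium that make most of the body's serotonin and release it in response to chemical, mechanical and microbial stimuli. Serotonin is made from tryptophan by tryptophan hydroxylase and then aromatic amino acid decarboxylase, is packed into vesicles by a monoamine transporter, is taken back up from outside the cell by the serotonin transporter, and is broken down by monoamine oxidase. Some enterochromaffin cells also make substance P and neurokinin A, tachykinins that act on smooth muscle, neurons and other cells.

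The cells came from male lean mice on a C57BL6 background that were about 20 weeks old before surgery. In these mice a Neurod1-driven Cre recombinase switches on the yellow fluorescent protein EYFP (Neurod1-cre-eYFP), so that EECs of every type are labelled. Mice had vertical sleeve gastrectomy (VSG), in which about 70% of the stomach is removed, or a sham operation followed by food ad libitum (S_al) or by restricted food that held body weight at that of the VSG group (S_wm). All groups were given analgesic and antibiotic and a liquid diet around surgery and then chow, and the VSG mice alone were injected with vitamin B12. Tissue was taken 6 weeks after surgery, after an overnight fast, with an oral dose of glucose (3 g/kg) about 15 min earlier, and EYFP-positive cells lacking the leukocyte antigen CD45 were sorted for RNA sequencing. The 48 libraries came from 17 mice and from the top 5 cm of the small intestine (duodenum), its bottom 15 cm (ileum) and the colon with rectum (colon), with 5 S_al, 5 S_wm and 6 VSG libraries in each. The Cre marks all EECs and not enterochromaffin cells alone, so that in these bulk samples fewer enterochromaffin cells and less RNA per cell cannot be told apart.

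The libraries held 4648651 to 17182463 counts, and levels are given below as CPM, the counts scaled to a common library size by edgeR's TMM method, with the SD over libraries. Markers of EECs (Neurod1, Chga, Chgb, Scg2, Scg3, Pcsk1n) summed to between 11309 and 99635 CPM. A list of 9 enterocyte markers summed to 280 to 44736 CPM and a list of 6 goblet markers to 1562 to 13945 CPM, so that RNA of other epithelial cells was present. The colonocyte, Paneth and leukocyte lists summed to 81.5 to 1861, 2.09 to 11651 and 0.554 to 32.2 CPM. Of 7 mast cell markers, whose presence matters because mast cells also make serotonin, only Kit was above 1.81 CPM in any library. A list of 7 enteric neuron markers summed to 38.0 to 224 CPM, of which Ret held up to 221 CPM in duodenum and Elavl3 7.82 to 40.4 CPM in colon libraries, while Vip, Nos1 and Chat were at most 0.419, 1.99 and 4.92 CPM. Tph2, the hydroxylase of neurons, had 2 counts in all duodenum libraries together, 0 in ileum and 9 in colon, which left Tph1 as the only tryptophan hydroxylase gene with a measurable level. The duodenum library of S_wm mouse 27 stood apart, with the lowest EEC sum and the highest enterocyte sum of all 48 libraries. Tests of members that rest on it are given with and without it. The region values of the pathway lists and the genes most like a member are given only with it. The ileum and colon libraries of S_al mouse 12 carry crossed tissue names in the labels. The tissue label was used, and the library labelled ileum had 692 CPM of Tph1 and 297 CPM of Tac1 and the library labelled colon 4968 and 69.7 CPM. One of the library indices, which has 4 values, largely followed the region: 12 of the 16 duodenum libraries had a value that no ileum or colon library had, so that index and region can be separated only in part. In the duodenum the index also followed surgery. All VSG libraries there had this value, whereas those of S_al mice 12, 13 and 32 and of S_wm mouse 27 had another. The fits with the index as a covariate were not repeated without the duodenum library of mouse 27.

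Tac1 is shown by the coding bases that set its peptides apart, because the gene-level counts cannot say which peptide a cell could make. The gene (ENSMUSG00000061762) lies at chr6:7554879-7565834 on the plus strand of GRCm38. Both stretches below, read from GENCODE M21 transcripts, are written 5′ to 3′, and capitals mark the codons of the C-terminal ending that tachykinins share.

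Tac1, substance P stretch, chr6:7556732-7556764: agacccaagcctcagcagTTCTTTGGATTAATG
Tac1, neurokinin A stretch: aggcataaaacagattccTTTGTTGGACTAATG

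The substance P stretch lies in 1 exon and was found in the open reading frame of all 4 transcripts searched (Tac1-201, Tac1-203, Tac1-204 and Tac1-205). The neurokinin A stretch is joined from base 7557743 of chromosome 6 and bases 7559099 to 7559130, across an exon junction, and was found only in Tac1-203 and Tac1-205. Counts per gene add these transcripts together.

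The bases around a transcription start of 3 members are shown because these genes had unlike patterns along the gut, described below. Most of the Tac1 window and all of the Tph1 window lie inside the annotated gene bounds (chr6:7554879-7565834 and chr7:46644641-46672537), with their marked matches. The other RefSeq start of Tph1, at the outer end of its gene, is not shown. Each runs from 250 bases before to 10 bases after a RefSeq transcription start (GRCm38.p6), 5′ to 3′ on the gene's own strand, and capitals mark matches to the motifs searched.

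Tac1 promoter, chr6:7554811-7555070, plus strand: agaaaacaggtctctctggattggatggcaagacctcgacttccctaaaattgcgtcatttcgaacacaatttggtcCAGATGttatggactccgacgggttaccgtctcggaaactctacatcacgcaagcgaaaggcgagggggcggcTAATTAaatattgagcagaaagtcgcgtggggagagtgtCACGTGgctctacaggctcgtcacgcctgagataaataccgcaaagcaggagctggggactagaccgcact
Tph1 promoter, chr7:46667368-46667627, minus strand: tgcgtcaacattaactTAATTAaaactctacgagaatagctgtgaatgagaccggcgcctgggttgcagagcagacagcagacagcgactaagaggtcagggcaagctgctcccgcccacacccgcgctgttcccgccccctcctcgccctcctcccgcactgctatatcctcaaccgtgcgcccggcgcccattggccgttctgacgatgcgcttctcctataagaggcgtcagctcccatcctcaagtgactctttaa
Slc18a2 promoter, chr19:59260628-59260887, plus strand: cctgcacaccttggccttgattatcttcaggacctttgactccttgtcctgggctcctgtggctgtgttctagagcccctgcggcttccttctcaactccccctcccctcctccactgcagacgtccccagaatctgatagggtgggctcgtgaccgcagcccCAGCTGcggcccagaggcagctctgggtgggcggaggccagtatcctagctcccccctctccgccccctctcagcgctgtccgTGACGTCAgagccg

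A total of 6 motifs were searched on both strands of windows of 250 bases before to 50 after each start: an E-box form spelled CAGATG, another spelled CAGCTG and another spelled CACGTG, the homeodomain core sequence TAATTA, the TATA box spelled TATAAA and the cAMP response element spelled TGACGTCA. The Tac1 window held CAGATG 173 bases before the start, a motif in 17.2% of all 32851 windows. It also held TAATTA 100 bases before the start, a motif in 5.29% of windows, and CACGTG 61 bases before it, a motif in 7.15%. The Tph1 window shown held TAATTA 234 bases before the start, and the other RefSeq start of Tph1 had no match. The Slc18a2 window held CAGCTG at 87 bases before the start, a motif in 16.3% of windows, and TGACGTCA beginning 4 bases before the start, a motif in 1.79% of windows. TATAAA, in 13.6% of windows, was in none of the 3 windows shown. No matches overlapped one another, and they are descriptions of sequence and not of binding. Slc18a1 had no entry in the promoter table.

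Between regions the serotonin genes split into those that were lowest in the ileum and those that followed another order. Tph1, which encodes the rate-limiting hydroxylase, was lower in ileum than in duodenum and colon, whereas Tac1 was highest in the ileum and Slc18a2 fell from duodenum to ileum to colon. Each pair of regions was contrasted as a mean over S_al, S_wm and VSG by edgeR's quasi-likelihood test, p-values were adjusted by Benjamini-Hochberg over the 15126 genes, and a gene was called at an adjusted p under 0.05. By this rule 5 of the 7 members differed between ileum and duodenum, 2 higher and 3 lower in ileum, in a comparison that called 33.8% of all genes (17.2% higher, 16.6% lower). Between colon and duodenum 4 differed, 1 higher and 3 lower in colon, beside 55.0% of all genes (26.8% higher, 28.3% lower), and between colon and ileum 6 differed, 3 in each direction, beside 49.2% (23.8% higher, 25.4% lower). With only 7 members these counts are descriptions beside the background shares. Without the duodenum library of mouse 27 the counts were 7, 4 and 6, and without the ileum and colon libraries of mouse 12 they were 4, 4 and 6. With the library index as a covariate they were 2, 3 and 6.

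**Figure D1:**
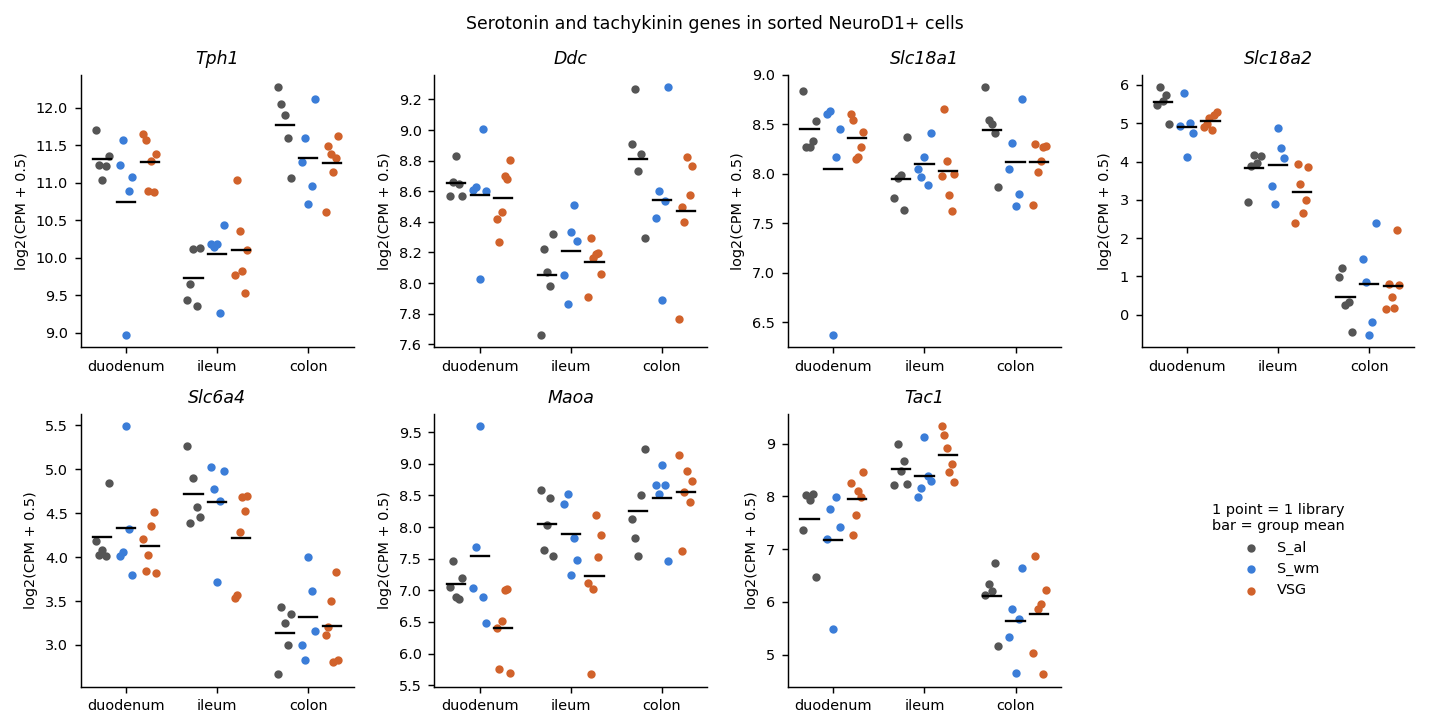
Level of each of the 7 genes in every library, as log2 of CPM plus 0.5 (vertical axis), in duodenum, ileum and colon, with 1 point per library coloured by surgery group and a black bar at the mean of each group. Tph1 lay low in the ileum, Tac1 high in the ileum and Slc18a2 low in the colon, and the single duodenum point of Maoa far above the others is S_wm mouse 27 at 773 CPM.

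Tph1 (ENSMUSG00000040046, chr7:46644641-46672537, minus strand) was the most abundant member in every region. Its lowest, median and highest levels over 16 libraries were 501.7, 2412 and 3341 CPM in duodenum, 616, 1106 and 2094 CPM in ileum, and 1560, 2779 and 4968 CPM in colon. The duodenum value of 501.7 CPM was that of mouse 27, and the next lowest duodenum library was at 1881 CPM. The log2 fold change was −1.18 (SE 0.17, adjusted p = 2.07e-07) for ileum minus duodenum and 1.496 (SE 0.17, adjusted p = 2.38e-10) for colon minus ileum. Colon minus duodenum was 0.32 (SE 0.17, adjusted p = 0.105), which did not pass. With the library index as a covariate the ileum to duodenum change of Tph1 was −0.60 (adjusted p = 0.314) and was no longer called, and the colon to duodenum change was 1.10 (adjusted p = 0.0365) and was called. Within the libraries that share 1 index value, Tph1 was lower by −0.67 (log2) in 7 ileum than in 4 duodenum libraries, and within another it was higher by 1.47 in 4 colon than in 8 ileum libraries. Those 4 duodenum libraries include that of mouse 27, at 501.7 CPM, and the difference without it was not computed. By its mean, Tph1 ranked 24th of the tested genes in duodenum, 58th in ileum and 18th in colon.

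Ddc (ENSMUSG00000020182, chr11:11814101-11898144, minus strand) encodes the decarboxylase that completes serotonin synthesis and is shared with other amine pathways. Its levels were 390 ± 58.8 CPM (SD, n = 16) in duodenum, 283 ± 40.3 CPM in ileum and 402 ± 112 CPM in colon, with ranges of 260 to 515, 202 to 365 and 217 to 622 CPM that overlapped. Ddc followed the order of Tph1 with smaller steps. Ileum minus duodenum was −0.47 (log2, SE 0.10, adjusted p = 0.000369) and colon minus ileum 0.51 (SE 0.10, adjusted p = 4.88e-05), while colon minus duodenum was 0.045 (SE 0.10, adjusted p = 0.738). The first of these calls was lost with the library index as a covariate (−0.21, adjusted p = 0.581).

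Slc18a1 (ENSMUSG00000036330, chr8:69037711-69089235, minus strand) encodes VMAT1, the vesicular monoamine transporter of endocrine cells. It was the most even member along the gut, at 328 ± 81.7 CPM (SD, n = 16) in duodenum, 265 ± 54.6 CPM in ileum and 306 ± 77.2 CPM in colon. The ranges of 82.4 to 458, 197 to 402 and 204 to 470 CPM lay over each other. None of its 3 region contrasts passed, with ileum minus duodenum at −0.31 (log2, SE 0.13, adjusted p = 0.065) as the nearest. Without the duodenum library of mouse 27, which held the 82.4 CPM, that contrast was −0.39 (SE 0.10, adjusted p = 0.0020), and with the library index as a covariate it was 0.20, in the other direction.

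Slc18a2 (ENSMUSG00000025094, chr19:59260896-59296012, plus strand) encodes VMAT2, the vesicular transporter of neurons and of histamine-storing cells. Its lowest, median and highest levels were 16.9, 33.0 and 61.2 CPM in duodenum, 4.77, 14.1 and 28.8 CPM in ileum, and 0.192, 1.04 and 4.79 CPM in colon. Every colon library was below every duodenum library, with no overlap between these regions in 9.75% of all genes tested. Ileum minus duodenum was −1.49 (log2, SE 0.22, adjusted p = 4.49e-07), colon minus ileum −3.20 (SE 0.27, adjusted p = 8.84e-14) and colon minus duodenum −4.69 (SE 0.27, adjusted p = 1.74e-19). The colon level rests on 156 counts in 16 libraries, between 1 and 38 in a library, so that its fold changes carry a large counting error. An antisense gene, Gm29261, shares 111 exonic bases with Slc18a2, and because no source used here states whether strand was used in counting, part of these counts could belong to it. The calls held with the library index as a covariate, at −1.23 (adjusted p = 0.0439) for ileum minus duodenum and −4.05 (adjusted p = 5.59e-08) for colon minus duodenum.

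Slc6a4 (ENSMUSG00000020838, chr11:76998603-77032340, plus strand) encodes SERT, which takes serotonin back up and is known in the gut from absorptive cells as well as neurons. It was a low member, at 19.1 ± 7.70 CPM (SD, n = 16) in duodenum, 23.4 ± 7.51 CPM in ileum and 9.17 ± 2.71 CPM in colon. Colon libraries ran from 5.85 to 15.5 CPM, duodenum libraries from 13.4 to 44.4 CPM and ileum libraries from 11 to 38.0 CPM. Colon was lower than duodenum by −1.07 (log2, SE 0.16, adjusted p = 2.00e-07) and than ileum by −1.35 (SE 0.16, adjusted p = 1.15e-09). Ileum minus duodenum was 0.28 (SE 0.16, adjusted p = 0.164), but 0.43 (SE 0.14, adjusted p = 0.0134) without the duodenum library of mouse 27, which held the 44.4 CPM. With the library index as a covariate this contrast was −0.34. The 9 enterocyte markers were all lower in colon than in the other regions, and the part of enterocyte RNA in the Slc6a4 level was not tested.

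Maoa (ENSMUSG00000025037, chrX:16619698-16687818, plus strand) encodes the monoamine oxidase with a preference for serotonin. It went up along the gut, from 159 ± 168 CPM (SD, n = 16) in duodenum to 229 ± 95.4 CPM in ileum and 368 ± 131 CPM in colon. Its lowest, median and highest levels were 51.0, 123 and 773 CPM, 50.5, 213 and 384 CPM, and 176, 373 and 601 CPM. The regions overlapped, and the 773 CPM was again the duodenum library of mouse 27. Colon minus duodenum was 1.301 (log2, SE 0.25, adjusted p = 1.82e-05), colon minus ileum 0.68 (SE 0.24, adjusted p = 0.0186) and ileum minus duodenum 0.62 (SE 0.24, adjusted p = 0.0447). Without the library of mouse 27 the last of these was 0.94 (SE 0.21, adjusted p = 0.000325), without the libraries of mouse 12 it missed the threshold (adjusted p = 0.081), and with the library index as a covariate it was −0.19. The colon minus duodenum call was also lost with that covariate (0.56, adjusted p = 0.439). Of 6 colonocyte markers 5 were higher in colon than in duodenum, and their part in the level of Maoa was not tested.

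Tac1 encodes the precursor of substance P and neurokinin A. Its lowest, median and highest levels were 44.2, 229 and 351 CPM in duodenum, 254, 352 and 642 CPM in ileum, and 24.2, 59.6 and 117 CPM in colon. Every ileum library was above every colon library, with no overlap between these regions in 7.14% of all genes tested, while duodenum overlapped both. No member separated ileum from duodenum without overlap, as 1.46% of all genes did. Ileum minus duodenum was 0.92 (log2, SE 0.21, adjusted p = 0.000495), colon minus duodenum −1.72 (SE 0.21, adjusted p = 4.24e-09) and colon minus ileum −2.64 (SE 0.22, adjusted p = 1.28e-13). Within the libraries that share 1 index value Tac1 was 1.67 (log2) higher in 7 ileum than in 4 duodenum libraries, and within another it was lower by −2.92 in 4 colon than in 8 ileum libraries. Those 4 duodenum libraries include that of mouse 27, and the difference without it was not computed. With the index as a covariate the colon minus duodenum contrast was −0.94 (adjusted p = 0.137) and was no longer called. By its mean Tac1 ranked 505th of the tested genes in duodenum, 184th in ileum and 2614th in colon.

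**Figure D2:**
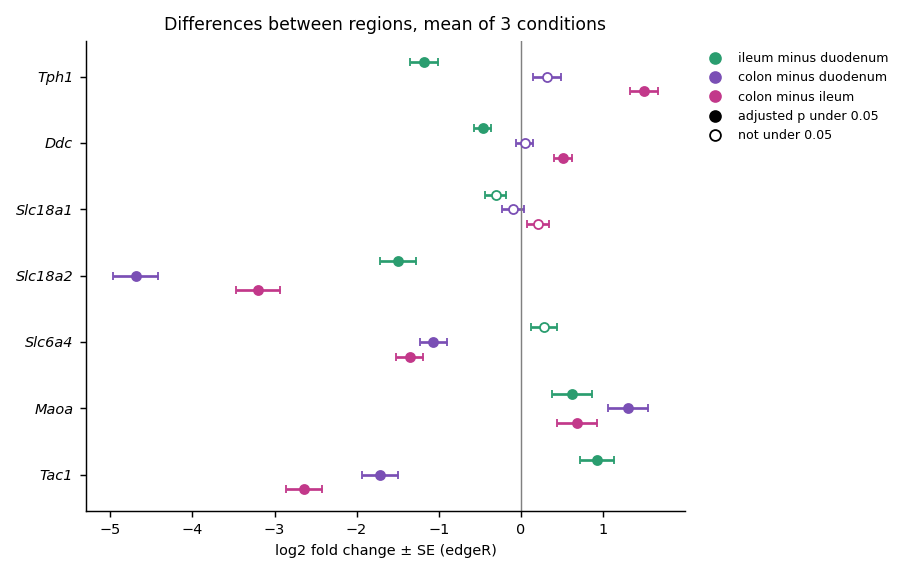
Log2 fold change of each gene (horizontal axis) for ileum minus duodenum, colon minus duodenum and colon minus ileum, with bars of 1 SE from edgeR's fit of 48 libraries and filled points at an adjusted p under 0.05. Slc18a2 had the lowest value, −4.69 for colon minus duodenum, and Tac1 and Tph1 lay on opposite sides of 0 in both contrasts with the ileum.

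Because longer transcripts give more reads, levels of unlike genes were compared per kilobase of exon. On this scale Tph1 was the highest member in all regions, at 386, 171 and 477 CPM per kilobase in duodenum, ileum and colon. Tac1 came second in the ileum (117 CPM per kilobase) and was behind Ddc in the duodenum (62.3 against 87.4) and behind Maoa, Ddc and Slc18a1 in the colon (18.5 against 88.3, 90.2 and 56.7). VMAT1 transcripts were above VMAT2 transcripts in all regions, at 60.8 against 7.09 CPM per kilobase in duodenum, 49.0 against 2.52 in ileum and 56.7 against 0.270 in colon. Slc6a4 was at 4.22, 5.15 and 2.02 CPM per kilobase.

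Ratios of a pair of members within a library are not changed by that library's depth or by how many enterochromaffin cells the sort held if both genes come only from these cells. Whether this holds was not tested. Maoa moved with the colonocyte, goblet and enterocyte lists across mice and Slc6a4 with the leukocyte list, as given below. Ratios of these genes to Tph1 can therefore change with the mix of cells. The ratios were compared between regions of the same mouse by exact two-sided sign-flip permutation tests of the log2 ratio after adding 0.5 CPM, with Benjamini-Hochberg adjustment over the 18 tests of 6 ratios. Pairing by mouse does not take out the library index, which largely followed the region and was no part of these tests. The geometric mean of Tac1 was 8.63% of Tph1 in duodenum, 38.1% in ileum and 2.04% in colon. Ileum exceeded duodenum in 15 of 15 mice, by 2.12 (log2, SD 0.60, exact p = 6.1e-05, adjusted p = 9.99e-05), and colon was below ileum in 16 of 16 mice, by −4.22 (SD 0.78, exact p = 3.05e-05, adjusted p = 9.99e-05). Both are the smallest p-values that the flips allow.

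VMAT1 transcripts were at 14.0% of Tph1 in duodenum, 26% in ileum and 10.7% in colon, with all 3 region differences past the threshold. VMAT2 transcripts went from 11.4% of VMAT1 in duodenum to 4.73% in ileum and 0.538% in colon. The drop from duodenum to colon, of −4.35 (log2, SD 0.94, exact p = 6.1e-05, adjusted p = 9.99e-05), was seen in 15 of 15 mice. Ddc stood at 17.3%, 27.9% and 13.9% of Tph1, and Slc6a4 at 0.837%, 2.25% and 0.335%. Maoa was 5.63%, 20.6% and 12.3% of Tph1, and its difference between colon and ileum, −0.74 (SD 1.44, exact permutation adjusted p = 0.0591), was the 1 of the 18 that did not pass. The Ddc to Tph1 difference between colon and duodenum, −0.30 (exact permutation adjusted p = 0.0313), was lost without the duodenum library of mouse 27 (−0.19). These percentages are not corrected for length and are read only between regions.

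**Figure D3:**
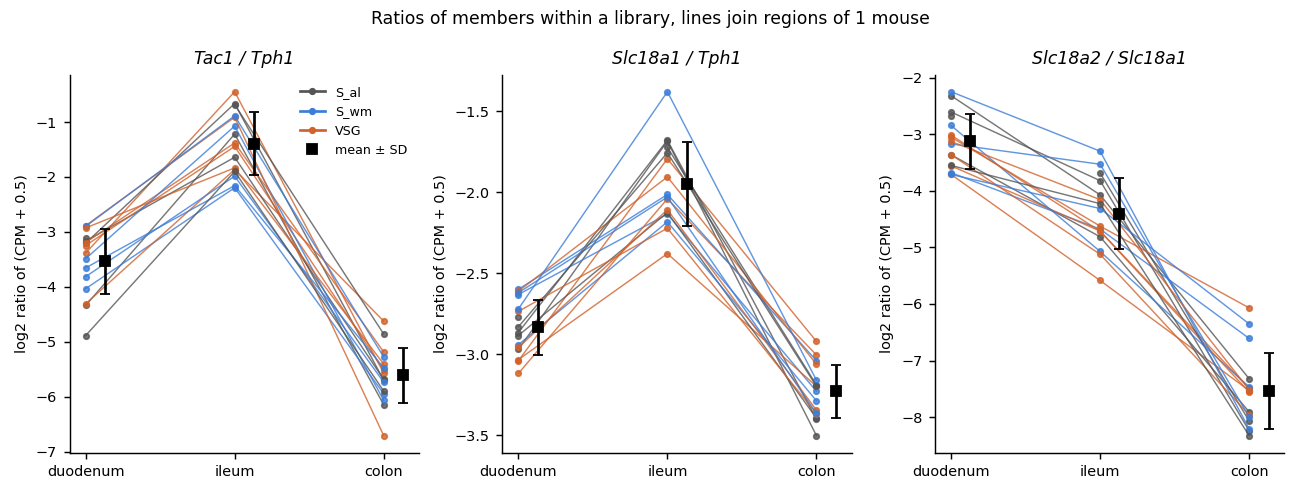
Log2 ratio of CPM plus 0.5 for Tac1 over Tph1, Slc18a1 over Tph1 and Slc18a2 over Slc18a1 in each library, by region, with lines joining the libraries of 1 mouse, coloured by surgery group, and black squares at the mean with SD. Tac1 over Tph1 was higher in ileum than in duodenum in 15 of 15 mice and lower in colon than in ileum in 16 of 16, and Slc18a2 over Slc18a1 was lower in colon than in duodenum in 15 of 15.

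Surgery left the 7 genes without a called change. Averaged over the regions, edgeR called 0 of the 7 members for VSG minus S_al, where 0.0% of all genes were called, 0 for VSG minus S_wm, where 0.245% were, and 0 for S_wm minus S_al, where 0.0529% were. At an unadjusted p under 0.05 these counts were 0, 1 (Maoa) and 0, beside 5.53%, 9.92% and 6.39% of all genes, and DESeq2 also called 0 in each. The 3 contrasts share samples, since each group enters a pair of them. The fit has no term for the mouse, so that libraries of 1 mouse from different regions count as separate. Within single regions edgeR called 0 members in all 9 contrasts, with 0.225% of all genes called for VSG minus S_wm in duodenum, 0.0463% in ileum and 0.0595% in colon, 0.0132% for S_wm minus S_al in colon and 0.0% in the others. At an unadjusted p under 0.05 there was 1 member in each of 3 of these, VSG minus S_wm in duodenum (Maoa, beside 8.71% of all genes) and in ileum (Slc18a2, 6.38%) and S_wm minus S_al in duodenum (Maoa, 6.55%), and 0 members in the others. The background shares of the others were 2.45%, 6.16% and 6.28% in duodenum, ileum and colon for VSG minus S_al, 3.65% in colon for VSG minus S_wm, and 7.85% and 3.66% in ileum and colon for S_wm minus S_al. DESeq2 called 1 member, Maoa, for VSG minus S_wm in duodenum. The surgery by region interaction called 0 members and 0.0% of all genes, with 0 members at an unadjusted p under 0.05, beside 4.9% of all genes, and 0 called by DESeq2.

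For Tph1 the duodenum levels were 2105, 2383, 2416, 2629 and 3341 CPM in S_al mice, 501.7, 1894, 2160, 2408 and 3047 CPM in S_wm mice, and 1881 to 3208 CPM with a median of 2590 CPM in 6 VSG mice. In the ileum S_al mice had 656, 692, 801, 1107 and 1122 CPM, S_wm mice 616, 1137, 1164, 1165 and 1389 CPM, and VSG mice 739 to 2094 CPM with a median of 1008 CPM. In the colon S_al mice had 2137, 3101, 3818, 4232 and 4968 CPM, S_wm mice 1680, 1987, 2485, 3095 and 4453 CPM, and VSG mice 1560 to 3167 CPM with a median of 2628 CPM. The groups overlapped in each region. Averaged over the regions the log2 fold change of Tph1 was −0.045 (SE 0.16) for VSG minus S_al and 0.11 (SE 0.16) for VSG minus S_wm, with adjusted p-values from edgeR's quasi-likelihood test of 1.0 and 0.900. The first averages regional values of both signs, −0.022 (SE 0.28) in duodenum, 0.42 (SE 0.29) in ileum and −0.53 (SE 0.28) in colon, none of which passed in edgeR (adjusted p = 1.0, 0.920 and 0.780), and the surgery by region interaction was not called (adjusted p = 1.0). 

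Tac1 had 88.3, 165, 243, 262 and 265 CPM in the duodenum of S_al mice, 44.2, 146, 171, 216 and 253 CPM in S_wm mice and 153 to 351 CPM with a median of 264 CPM in VSG mice. In the ileum it had 297, 300, 355, 409 and 506 CPM in S_al mice, 254, 287, 311, 333 and 554 CPM in S_wm mice and 309 to 642 CPM with a median of 436 CPM in VSG mice. In the colon it had 35.4, 69.7, 73.7, 80.9 and 106 CPM in S_al mice, 24.6, 39.8, 50.8, 57.6 and 99.5 CPM in S_wm mice and 24.2 to 117 CPM with a median of 59.6 CPM in VSG mice. VSG medians were the highest in duodenum and ileum and below that of S_al in colon, and the groups overlapped in each region. The averaged change was 0.40 (log2, SE 0.21, adjusted p = 0.529) for VSG minus S_wm and 0.12 (SE 0.20, adjusted p = 1.0) for VSG minus S_al, both from edgeR's quasi-likelihood test. In colon VSG minus S_al was −0.26 (SE 0.36, adjusted p = 0.905 in edgeR). Without the duodenum library of mouse 27 the averaged VSG minus S_wm change was 0.31 (adjusted p = 0.607).

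Slc18a2 in the ileum had 7.19, 14.3, 15, 17.2 and 17.5 CPM in S_al mice, 6.94, 9.86, 16.6, 20.01 and 28.8 CPM in S_wm mice and 4.77 to 14.9 CPM with a median of 8.84 CPM in VSG mice. The VSG libraries lay low within an overlapping range. VSG minus S_wm in ileum was −0.78 (log2, SE 0.38, adjusted p = 0.767 in edgeR's quasi-likelihood test), which failed the correction. Averaged over the regions it was −0.41 (SE 0.25). Slc6a4, at −0.30 (SE 0.16) for VSG minus S_wm, Ddc, at −0.078 (SE 0.10), and Slc18a1, at 0.018 (SE 0.13), also failed it.

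Maoa had the largest surgery value of the 7 genes, VSG minus S_wm in duodenum, and that value rested largely on a single library. In the duodenum it had 116, 119, 132, 147 and 175 CPM in S_al mice, 89.0, 118, 131, 206 and 773 CPM in S_wm mice, and 51.0 to 130 CPM with a median of 87.7 CPM in VSG mice. In the ileum it had 186, 199, 261, 352 and 384 CPM in S_al mice, 151, 178, 227, 330 and 366 CPM in S_wm mice, and 50.5 to 291 CPM with a median of 161 CPM in VSG mice. In the colon it had 186, 226, 280, 364 and 601 CPM, 176, 368, 404, 404 and 505 CPM, and 197 to 566 CPM with a median of 400 CPM. VSG libraries thus lay toward the low end in both parts of the small intestine and not in the colon. VSG minus S_wm in duodenum was −1.56 (log2, SE 0.42, adjusted p = 0.0805 in edgeR's quasi-likelihood test), and DESeq2 gave −1.58 with an adjusted p of 0.0163. Without the duodenum library of mouse 27, which held the 773 CPM, it was −0.61 (SE 0.36, adjusted p = 1.0). Leaving out S_wm mouse 16, 29 or 31 in place of mouse 27 gave adjusted p-values of 0.0458, 0.0412 and 0.0219. The contrast was −0.55 in ileum and 0.090 in colon, and the test of whether surgery differences vary between regions did not pass (adjusted p = 1.0 in edgeR). In the duodenum the 9 enterocyte markers summed to 6415 to 44736 CPM in S_wm mice, with 44736 CPM in mouse 27, and to 5329 to 7317 CPM in VSG mice, and the part of these cells in the Maoa values was not tested.

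The other monoamine oxidase gene, Maob, belongs to a list of enzymes of aromatic amines and was the 1 gene of the 9 pathway lists called in a surgery contrast averaged over the regions. Its ileum levels were 27.9, 31.8, 35.6, 39.1 and 51.4 CPM in S_al mice, 29.7, 37.1, 42.0, 45.7 and 46.5 CPM in S_wm mice and 18.3 to 26.5 CPM with a median of 21.6 CPM in VSG mice. Every VSG ileum library was below every sham library, and 0.0463% of all genes had no overlap between these 6 and 10 libraries in either direction and 0.0264% with VSG lower. In the duodenum S_wm mice had 25.5, 33.4, 34.7, 43.4 and 48.9 CPM and VSG mice 17.9 to 31.6 CPM, which overlapped. VSG minus S_wm was −0.59 (log2, SE 0.095, adjusted p = 0.000239 in edgeR's quasi-likelihood test) over the regions, and the same averaged contrast against S_al, which shares the VSG libraries, was −0.44 (SE 0.095, adjusted p = 0.0947), which DESeq2 called. Within regions VSG minus S_wm was −0.88 (SE 0.17, adjusted p = 0.0209) in ileum, −0.65 (adjusted p = 0.0549) in duodenum and −0.24 (adjusted p = 1.0) in colon, and the surgery by region interaction was not called (adjusted p = 1.0). The ileum call was lost with only the libraries compared (−0.89, adjusted p = 0.0685 in edgeR) and without any 1 of VSG mice 11, 22 and 28 and S_wm mice 16, 21 and 31 (adjusted p = 0.0508 to 0.130). Maob was among the genes that earlier results of these data had already shown, so that it is no independent finding.

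**Figure D4:**
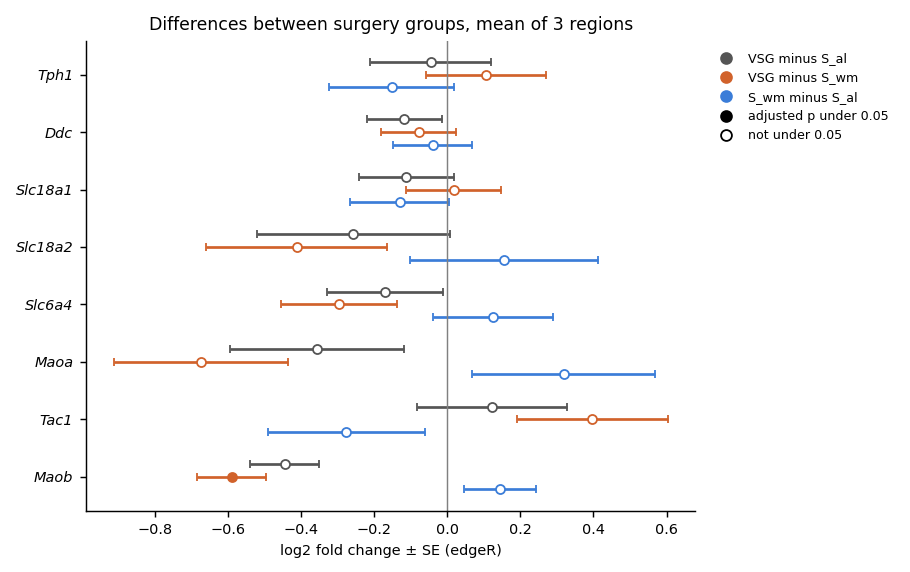
Log2 fold change (horizontal axis) of the 7 genes and of Maob between surgery groups, averaged over the regions, with bars of 1 SE from edgeR's fit and filled points at an adjusted p under 0.05. None of the 7 genes has a filled point, and Maob has one for VSG minus S_wm, at −0.59.

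None of the 6 member ratios passed a test between surgery groups by exact two-sided permutation of mice. The lowest of the 18 p-values was 0.165 (adjusted p = 0.738), for Slc18a2 over Slc18a1 in VSG minus S_wm, with a difference of −0.28 (log2, SE 0.18, 11 mice, 462 partitions). Tac1 over Tph1 differed by 0.27 (SE 0.19, exact permutation p = 0.167) in the same contrast.

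Mice also differed from one another within groups, and this was followed by the mean deviation of each mouse from its group means over its regions. Over 17 mice and 21 pairs of members, with permutation within surgery groups (100000 resamples) and Benjamini-Hochberg adjustment over the 21, Tph1 and Slc18a1 deviated together, with Pearson's r = 0.955 and Spearman's rho = 0.963 (permutation p = 1e-05 for both, the smallest that the resamples can give; adjusted p = 0.00021). The r was 0.940 without the 2 mice farthest from the median of Tph1 and 0.942 without the duodenum library of mouse 27. Slc6a4 and Tac1 deviated in opposite directions, with r = −0.715 (permutation adjusted p = 0.00493) and rho = −0.645 (permutation adjusted p = 0.0273). That r was −0.561 without the 2 farthest mice, and without the library of mouse 27 it was −0.606, with a rho that no longer passed (permutation adjusted p = 0.147). The other 19 pairs did not pass.

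The same deviations were set beside 12 lists of cell markers in 84 relations, of which 20 passed by r and 9 by both r and rho. Tph1 and Slc18a1 moved with the EEC list, with r = 0.928 and rho = 0.907 (permutation adjusted p = 0.00168 for r) and r = 0.886 and rho = 0.914 (permutation adjusted p = 0.00231 for r). Without the duodenum library of mouse 27 these were r = 0.890 and 0.831. Tph1 also moved with the enteric neuron list (r = 0.832, rho = 0.716, permutation adjusted p = 0.00231 for r), whose sum is mostly Ret, and with the endothelium and stroma list (r = 0.815, rho = 0.792, permutation adjusted p = 0.00765 for r), whose sum is mostly Pecam1. Without that library the first was r = 0.693 and no longer passed (permutation adjusted p = 0.0677), and the second was r = 0.786 (permutation adjusted p = 0.0297). Without the 2 mice farthest on each list they were r = 0.723 and 0.803. Maoa moved with the colonocyte list (r = 0.893, rho = 0.890, permutation adjusted p = 0.00084), the goblet list (r = 0.863, rho = 0.816, permutation adjusted p = 0.00288) and the enterocyte list (r = 0.691, rho = 0.706, permutation adjusted p = 0.0395). In duodenum and ileum the colonocyte sum is largely Ceacam20, Car4 and Slc26a3. Ceacam20 had medians of 70.9, 80.9 and 57.5 CPM in duodenum, ileum and colon, and Car1 0.264, 0.542 and 984 CPM. Without the library of mouse 27 the colonocyte relation was r = 0.820 (permutation adjusted p = 0.00812), while those with goblet (r = 0.722, permutation adjusted p = 0.0677) and enterocyte lists (r = 0.612, permutation adjusted p = 0.125) no longer passed. Slc6a4 moved with the leukocyte list (r = 0.862, rho = 0.804, permutation adjusted p = 0.00288), at r = 0.740 (permutation adjusted p = 0.0573) without that library, and at r = 0.683 without the 2 mice farthest on the leukocyte list. Tac1 moved against the goblet list (r = −0.698, rho = −0.689, permutation adjusted p = 0.00288), at r = −0.591 (permutation adjusted p = 0.0297) without that library. Without the 2 mice farthest on the x axis these r were 0.927 and 0.834 for Tph1 and Slc18a1 with the EEC list, 0.841, 0.744 and 0.477 for Maoa with the colonocyte, goblet and enterocyte lists, and −0.659 for Tac1 with the goblet list. The other 11 passed by r and not by rho, and without the library of mouse 27 none of these passed. They were Slc18a1 with the enteric neuron (r = 0.858) and endothelium and stroma lists (r = 0.726), Slc18a2 with the colonocyte list (r = −0.649), Maoa with the enteric neuron list (r = −0.706), Tac1 with the enterocyte (r = −0.605), Paneth (r = −0.798) and leukocyte lists (r = −0.659), and Slc6a4 with the EEC (r = −0.652), goblet (r = 0.697), Paneth (r = 0.616) and endothelium and stroma lists (r = −0.695). The part of other cells in the member levels was not tested. The EEC list holds Neurod1, whose promoter drives the label used for the sort.

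**Figure D5:**
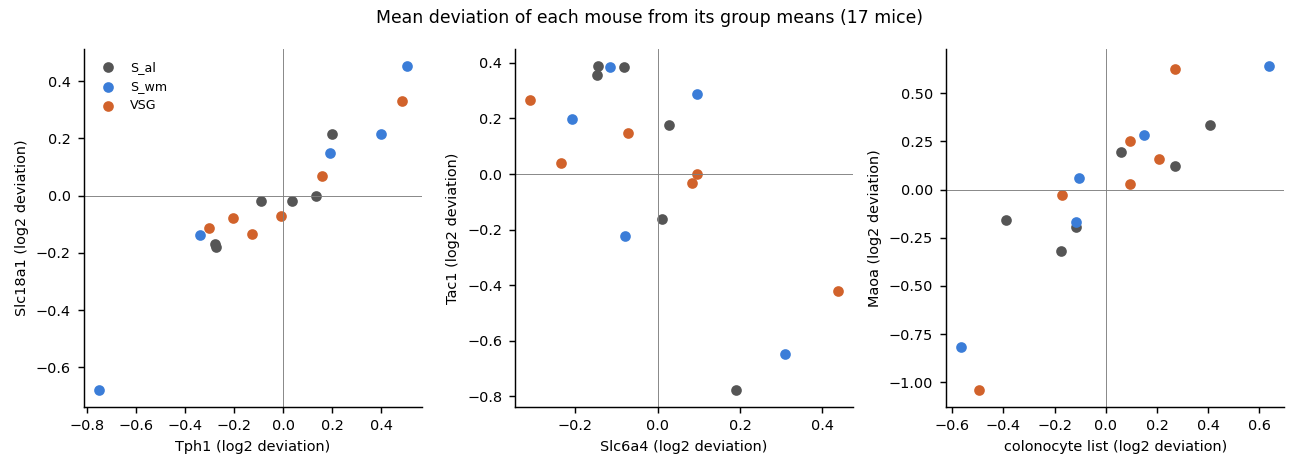
Mean deviation of each of 17 mice from its group means (log2, both axes), for Tph1 against Slc18a1, Slc6a4 against Tac1 and the summed colonocyte list against Maoa, with 1 point per mouse coloured by surgery group. Tph1 and Slc18a1 deviated together (r = 0.955), as did the colonocyte list and Maoa (r = 0.893), and Slc6a4 and Tac1 ran in opposite directions (r = −0.715). In duodenum and ileum the colonocyte sum is largely Ceacam20, Car4 and Slc26a3.

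Over the 48 libraries, with group means removed, the genes most like Tph1 among 8860 genes with a mean of at least 10 CPM were Slc18a1 (r = 0.942), Snap25 (r = 0.937), Lmx1a (r = 0.936), Krt7 (r = 0.931) and Sh3kbp1 (r = 0.926). Snap25 encodes a protein of vesicle fusion and Lmx1a a transcription factor of enterochromaffin cells. Maoa lay at the other end, with r = −0.715 and rank 8669. Those most like Slc18a1 were Sh3kbp1 (r = 0.944), Tph1, Ptprn (r = 0.941), Glis3 (r = 0.927) and Sez6l2 (r = 0.923), of which Ptprn encodes a protein of dense core vesicles. Those most like Tac1 were Vim (r = 0.807), Cnksr2 (r = 0.789), Mreg (r = 0.771), Itga9 (r = 0.748) and Psat1 (r = 0.743). Libraries of the same mouse share an animal and those of low EEC content share that too, so these values are descriptions.

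Over the 9 group means, which mostly reflect region, other genes led. Tph1 was followed most closely by Sv2c (r = 0.985), Fam174a, Dclk3, Hpcal1 and Cwh43, with Ddc at rank 43 (r = 0.945). Tac1 was followed by Ppp4r2 (r = 0.992), Maz, Lsr, Tnfrsf11b and Rassf4, and its r with Tph1 was −0.779. Slc18a1 was followed by Phf2 (r = 0.978), Chgb (r = 0.934), Slf2, Vldlr and Rnf214.

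The genes around serotonin and tachykinin handling were taken from 9 lists, and the pattern along the gut was described by their counts beside the 33.8%, 55.0% and 49.2% of all genes called for ileum minus duodenum, colon minus duodenum and colon minus ileum. The values given for these lists come from the fit without the library index, which largely followed the region. They were not computed without the duodenum library of mouse 27. The filter keeps a gene that is high in a single group. A gene near 0 in a region could thus be called only as lower there, and the list counts include such genes. Among other aromatic amine enzymes 5 of 9 were tested, and 1, 3 and 3 were called, each lower in the first region. Th, the first enzyme of catecholamine synthesis, had 34.9 ± 10.8 CPM (SD, n = 16) in duodenum, 20.6 ± 7.97 in ileum and 0.400 ± 0.347 in colon, a colon minus duodenum change of −6.49 (log2, SE 0.29). Hdc, which makes histamine, changed by −1.93 (SE 0.26) in the same contrast and Maob by −0.24 (SE 0.097).

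All 9 genes of the tetrahydrobiopterin and vitamin B6 cofactors, which hydroxylases and the decarboxylase need, were tested. In ileum minus duodenum 4 were called, all lower, and in colon minus duodenum 1 was higher and 5 were lower, with a list median of −0.44 beside −0.015 for all genes. Pdxk, which activates vitamin B6, stepped down from 199 ± 27.3 CPM (SD, n = 16) in duodenum to 124 ± 23.7 in ileum and 54.7 ± 7.66 in colon (−1.87, SE 0.083, colon minus duodenum). Gchfr, a regulator of tetrahydrobiopterin synthesis, changed by −1.18 (SE 0.34) and Pcbd1, which recycles the cofactor, by −0.72 (SE 0.098). The Gchfr value rests on 250 counts in duodenum and 96 in colon.

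Of genes for the entry of tryptophan and for the competing kynurenine route, 9 of 11 were tested, and colon minus duodenum called 2 higher and 5 lower (list median −1.08). The amino acid carriers Slc6a19 (269 ± 154, 290 ± 91.9 and 30.1 ± 8.55 CPM in duodenum, ileum and colon), Slc7a8 and Slc16a10 changed by −3.14 (SE 0.19), −2.64 (SE 0.19) and −2.41 (SE 0.15). Slc6a19 is a known carrier of absorptive cells, all 9 enterocyte markers were lower in colon too, and their part in this change was not tested. Slc7a5, a carrier of large neutral amino acids, was instead higher in ileum by 0.91 (SE 0.13) than in duodenum. Tdo2, a first enzyme of the kynurenine route, was lower in ileum by −1.97 (SE 0.56), at 1.29 ± 0.933 CPM in duodenum against 0.575 ± 0.596 CPM. It rests on 180 counts in duodenum and 62 in ileum, so that its fold change carries a large counting error.

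For breakdown beyond the oxidases, 6 of 7 aldehyde and conjugation genes were tested, and colon minus duodenum called 3 higher and 1 lower. Sult1a1, a sulfotransferase of phenols, went from 0.677 ± 0.757 CPM (SD, n = 16) in duodenum and 1.63 ± 1.55 in ileum to 141 ± 37.1 in colon (7.76, SE 0.34). Aldh2, which oxidises the aldehyde left by monoamine oxidase, was at 73.9 ± 36.1, 65.5 ± 18.5 and 237 ± 74.0 CPM (1.67, SE 0.15), and Ugt1a6a changed by −0.85 (SE 0.35). The Ugt1a6a value rests on 154 counts in duodenum and 66 in colon. Aldh1b1 was higher in ileum than in duodenum by 0.96 (SE 0.12). Among other amine transporters 4 of 8 were tested, and Slc29a4, a plasma membrane monoamine transporter, was higher in colon by 2.00 (SE 0.18; 15.2 ± 5.35 against 59.0 ± 18.9 CPM), Slc18b1, a vesicular polyamine transporter, lower by −1.22 (SE 0.11). Slc22a3 was lower in ileum than in duodenum by −0.80 (SE 0.19).

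Of the other tachykinins, their receptors and peptide processing genes, 6 of 11 were tested, and none of the tachykinin genes Tac2 and Tac4 or the receptor genes Tacr1, Tacr2 and Tacr3 had over 58 counts in the 16 libraries of a region. Colon minus duodenum called 5 lower and 0 higher (list median −3.16). Mme, which encodes neprilysin, a peptidase that degrades substance P, changed by −6.02 (SE 0.44), Ace by −3.29 (SE 0.32) and Pcsk2, a prohormone convertase, by −5.71 (SE 0.34). Pcsk2 was at 27.8 ± 8.32 CPM in duodenum, 0.248 ± 0.394 in ileum and 0.623 ± 0.669 in colon. In duodenum Mme was at 242 ± 435 CPM and Ace at 390 ± 536 CPM, each with an SD above its mean. In colon they were at 3.29 ± 3.25 and 36.5 ± 15.3 CPM. Mme and Ace are also known from absorptive cells, and the part of enterocyte RNA in their values was not tested.

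Of 14 serotonin receptor genes only 4 were tested, and colon minus duodenum called 3 higher and 1 lower. Htr1b had 26 counts in duodenum, 47 in ileum and 395 in colon. Htr1b and Htr3a passed the filter through their colon libraries, so that they could be called only as higher there. Htr4 was at 1.16 ± 0.705, 3.22 ± 1.42 and 9.29 ± 3.06 CPM in duodenum, ileum and colon (3.00, SE 0.26), and Htr1b at 0.195 ± 0.435, 0.421 ± 0.477 and 3.66 ± 2.28 CPM (5.46, SE 0.58). Htr3a had 0 counts in all duodenum libraries, 3 in ileum and 315 in colon.

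The list of 6 transcription factors of enterochromaffin cells is not particular to these cells, since it holds Neurod1, which is also on the EEC list. All 6 were tested, and 4 were lower in ileum than in duodenum. In colon 3 were lower than in duodenum, Neurod1 by −1.35 (SE 0.15), Nkx2-2 by −1.06 (SE 0.14) and Lmx1a by −0.85 (SE 0.16; 245 ± 66.3 against 134 ± 42.4 CPM), and 1, Pax4, was higher by 0.59 (SE 0.17). Of 9 sensing and granule genes colon minus duodenum called 5 higher and 2 lower. Piezo2 had 37 counts in duodenum and 15098 in colon, and Trpa1 had 104981 and 69. Each was thus near 0 in a region and could be called only as lower there. Trpa1, a channel for irritants, was at 724 ± 277 CPM (SD, n = 16) in duodenum, 120 ± 42.0 in ileum and 0.712 ± 0.676 in colon (−10.16, SE 0.32), whereas Piezo2, a channel for mechanical force, was at 0.292 ± 0.406, 0.694 ± 0.677 and 131 ± 74.3 CPM (8.81, SE 0.40). Olfr558, a receptor for short branched fatty acids, was at 1.56 ± 0.853, 15.8 ± 5.17 and 39.6 ± 11.2 CPM (4.74, SE 0.22).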

How the data were processed

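NeuroD1-labelled EECs sorted from duodenum, ileum and colon were sequenced by the authors as 48 libraries (SMARTer stranded total RNA, pico input, single reads of 50 bases). The authors deposited whole-number counts per gene, made from reads aligned with STAR 2.5.1 to GRCm38 with Ensembl annotation, and whether strand was used in counting is not given in the sources used here. No normalization had been applied to the deposited counts, and 0 columns belonged to other samples. Of 53465 identifiers 53360 were matched to GENCODE M21.

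Groups, tissues and mouse numbers were taken from the labels. Counts were filtered with filterByExpr over the 9 groups, TMM-scaled and fitted with 1 mean per group with edgeR 4.0.16 (R 4.3.3, robust quasi-likelihood fit, Benjamini-Hochberg adjustment over 15126 genes, threshold 0.05). Standard errors were taken as the size of the log2 fold change over the root of F. Ratios used log2 of CPM plus 0.5 and exact permutation tests. The common biological coefficient of variation was 0.302. On simulated counts for 14545 genes with 200 changed, VSG minus S_al averaged over the regions recovered 22.7% of genes changed by 0.5 (log2) and 94.7% of those changed by 1, and called 0.0627% of unchanged genes. The simulated counts gave every gene the same dispersion and held no effect of the mouse, unlike the data. No pair of libraries of a group was a duplicate (105 pairs, lowest chi-square per gene 8.78).

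The mouse number pairs the libraries of 1 animal across regions. Over 46 such pairs the correlation of deviations from the group means, across the 2000 most variable genes, had a median of 0.121 (from −0.118 to 0.426, 26 over 0.1), beside −0.0023 between mice. Surgery groups hold different mice and are not paired. Nothing used here says more about how the mice were batched. The main edgeR fit has no term for the mouse, so its p-values measure the spread between libraries. Its averaged surgery contrasts count libraries of 1 mouse from different regions as separate. The permutation tests of ratios and of mouse deviations take the mouse as the unit.

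The alternatives were DESeq2 1.42.0 in place of edgeR, its size factors in place of TMM, no filter and a stricter filter on low counts (10 counts in every library of a group), only the libraries compared, the mouse as a fixed block or, with limma 3.58.1 voom, as a random block, counts summed per mouse, the library index as a covariate, a pseudocount of 2 CPM, omission of the libraries of mouse 12 or of the duodenum library of mouse 27, and omission of each mouse. Correlations without the duodenum library of mouse 27 were added after the data were seen.

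The members, lists and tests were chosen with earlier results of these data known. The text names all members and, of each pathway list, the genes past the threshold in an averaged surgery contrast, up to 3 of largest change past the threshold for colon minus duodenum and up to 2 for ileum minus duodenum. It also names the 5 genes most like Tph1, Tac1 and Slc18a1. Protein sequences were not used here. The human samples, peptidomics and hormone measurements of the study were not analysed here.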

Additional observations from a re-analysis of the deposited data

Results flagged for a closer look

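Each member was searched in each group of 5 or 6 libraries for a library far from the others by Dixon's ratio, in 63 groups. Chance marks about 1 in 20 such groups, and 5 libraries were marked, of which 3 were from S_wm mouse 27 and 2 of those from its duodenum library. Maoa in the duodenum of S_wm mouse 27 was at 773 CPM, with the next S_wm library at 206 CPM. Slc6a4 in that same library was at 44.4 CPM, with the next at 19.5 CPM. Tac1 in the ileum of mouse 27 was at 554 CPM, with the next S_wm library at 333 CPM. Slc6a4 in the duodenum of S_al mouse 32 was at 28.1 CPM, with the next at 17.7 CPM. Slc18a2 in the colon of VSG mouse 28 was at 4.11 CPM, with the next VSG library at 1.25 CPM.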

How the results depend on the processing

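The members called between regions (5 for ileum minus duodenum, 4 for colon minus duodenum, 6 for colon minus ileum) were as many with the mouse as a fixed replicate block (5, 4 and 6) and in voom, where the mouse was a random block (5, 4 and 6), so that the pairing changed no such count. The ratios called were 6, 6 and 5 without pairing. The library index as a covariate took the first count to 2. Omitting each mouse in turn gave 4 to 7, 4 to 4 and 5 to 7 members, and 5 to 6 ratios for colon minus duodenum and for colon minus ileum. In the duodenum VSG minus S_wm, DESeq2 called 1 member (Maoa) in place of 0, and omitting single mice gave 0 to 1. DESeq2 called 1 pathway gene (Maob) for VSG minus S_al in place of 0.

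With the index covariate directions turned for Slc18a1 (ileum minus duodenum 0.20, colon minus duodenum 0.54, VSG minus S_wm −0.0051), Slc6a4 (ileum minus duodenum −0.34, VSG minus S_al 0.020), Maoa (ileum minus duodenum −0.19) and Tac1 (VSG minus S_al −0.11). Without the duodenum library of mouse 27 they turned for Slc18a1 (VSG minus S_wm −0.066), Slc6a4 (S_wm minus S_al −0.018), Maoa (S_wm minus S_al in duodenum −0.016) and Ddc/Tph1 (S_wm minus S_al −0.0039). Slc18a2 for S_wm minus S_al turned to −0.0022 in voom with the random block and to −0.45 with counts summed per mouse. The fits with the index kept the duodenum library of mouse 27, and the causes were not tested. Apart from the fits with the index, none of these turned values belonged to a called result.

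Omitting single mice turned only contrasts that were not called. These were Ddc for colon minus duodenum (−0.032 to 0.090), Tph1 (−0.17 to 0.013) and Tac1 (−0.023 to 0.21) for VSG minus S_al, Tph1 (−0.029 to 0.23), Ddc (−0.16 to 0.0031) and Slc18a1 (−0.094 to 0.13) for VSG minus S_wm, and Ddc (−0.12 to 0.036), Slc18a2 (−0.080 to 0.30) and Slc6a4 (−0.031 to 0.19) for S_wm minus S_al. They were also Maoa for S_wm minus S_al in duodenum (−0.016 to 1.15) and VSG minus S_wm in colon (−0.090 to 0.23), and of ratios Tac1/Tph1 (−0.084 to 0.21) and Slc6a4/Tph1 (−0.27 to 0.032) for VSG minus S_al, and Ddc/Tph1 (−0.030 to 0.23), Slc18a1/Tph1 (−0.021 to 0.075), Slc18a2/Slc18a1 (−0.012 to 0.15) and Maoa/Tph1 (−0.0062 to 0.69) for S_wm minus S_al.

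The Maoa call for ileum minus duodenum was lost without a filter (adjusted p = 0.115) and with only the libraries compared (adjusted p = 0.062). Counting error limits Slc18a2 in colon. In the simulated counts, with 5 or 6 mice a group, surgery changes of 0.5 (log2) averaged over the regions were mostly missed. The simulation does not give this share for single members or within a region.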
